A study of Mus musculus with 12 samples.

Results

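The change of polysome loading after spinal cord injury was measured in mice as a difference of differences: the injury change of a transcript on polysomes minus its injury change in total RNA. All 12 of 12 arrays of the study enter it, with 3 biological replicates in each of 4 groups. The mice were wild-type C57BL/6 females aged 10 weeks. Injured mice had 80% of the spinal cord cut through after a laminectomy, which opens the vertebrae over the cord. Control mice had the laminectomy alone and are called sham here, although the sample titles call them naive. The cord was collected 9 hours after the operation as a piece 2.5 cm long, centred on the lesion, and homogenized. Total RNA was isolated from a small aliquot, and polysome-bound RNA from the rest by a sucrose gradient. Affymetrix arrays were hybridised, from 5 µg of RNA for the total fraction and 3 µg for the polysome fraction, and the values are log2 expression values with 1 value per probe set. Because the RNA input of each fraction was fixed, every value is relative to the other transcripts of its own fraction. A rise or fall of loading is therefore a shift against other transcripts, and a change in the overall amount of polysomes is not measured.

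A polysome is an mRNA that carries several ribosomes, and the share of a transcript found there is widely used as a measure of how actively it is translated. Ribosomes reach an mRNA through initiation factors that bind its 5′ cap, and injured or stressed cells are known to alter that step. Cpeb1, which the study is named for, binds cytoplasmic polyadenylation elements in the 3′ untranslated regions of mRNAs and regulates their poly(A) tails and translation. In whole cord tissue, loss of cells of a type and less RNA per cell cannot be told apart in either fraction, and loading here averages over neurons, glia, vessel cells and blood-derived cells.

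Signal quality moved with the contrast and is given first. The 3′ minus 5′ signal of the Gapdh control probe sets, which grows when RNA or its labelling is shorter, was 0.23 ± 0.05 (SD, n = 3) in total RNA of sham cords and 1.40 ± 0.22 in that of injured cords. On polysomes it was 0.87 ± 0.03 in sham and 2.83 ± 0.27 in injured cords. For Actb the same means were 1.46 and 1.80 in total RNA and 1.68 and 3.26 on polysomes, whereas for Pcx the means of the 4 groups lay between 2.16 and 2.50. For Tfrc they did not grow with injury, at 0.85 in sham and 0.65 in injured cords in total RNA and 0.18 and 0.14 on polysomes. The part of shorter RNA or labelling in the loading changes was not tested. The polysome arrays of injured replicates 1 and 2 received the lowest weights when array weights were estimated, 0.205 and 0.471 against 0.895 to 2.08 for the others.

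Loading changed for a large share of the transcriptome, and mostly downward as deposited. Of 10370 genes tested, 5208 differed between the fractions in their injury change (50.2%, limma interaction, adjusted p under 0.05). Loading rose for 1136 genes (11.0%) and fell for 4072 (39.3%), and the median over all genes was -0.164 on the log2 scale. At least 2-fold, 14 genes rose and 119 fell. The split depended on the scaling. When the arrays were quantile normalized within each fraction, so that each fraction had a common distribution, 3500 genes were called (33.8%), of which 1670 rose (16.1% of all) and 1830 fell (17.6%), with a median of -0.00199. In both scalings 710 genes rose (6.85%) and 1721 fell (16.6%), and the genes named below were called the same way in both unless stated. Every rise or fall given below is as deposited, and the value from quantile normalization within each fraction is called the quantile value.

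**Figure D1:**
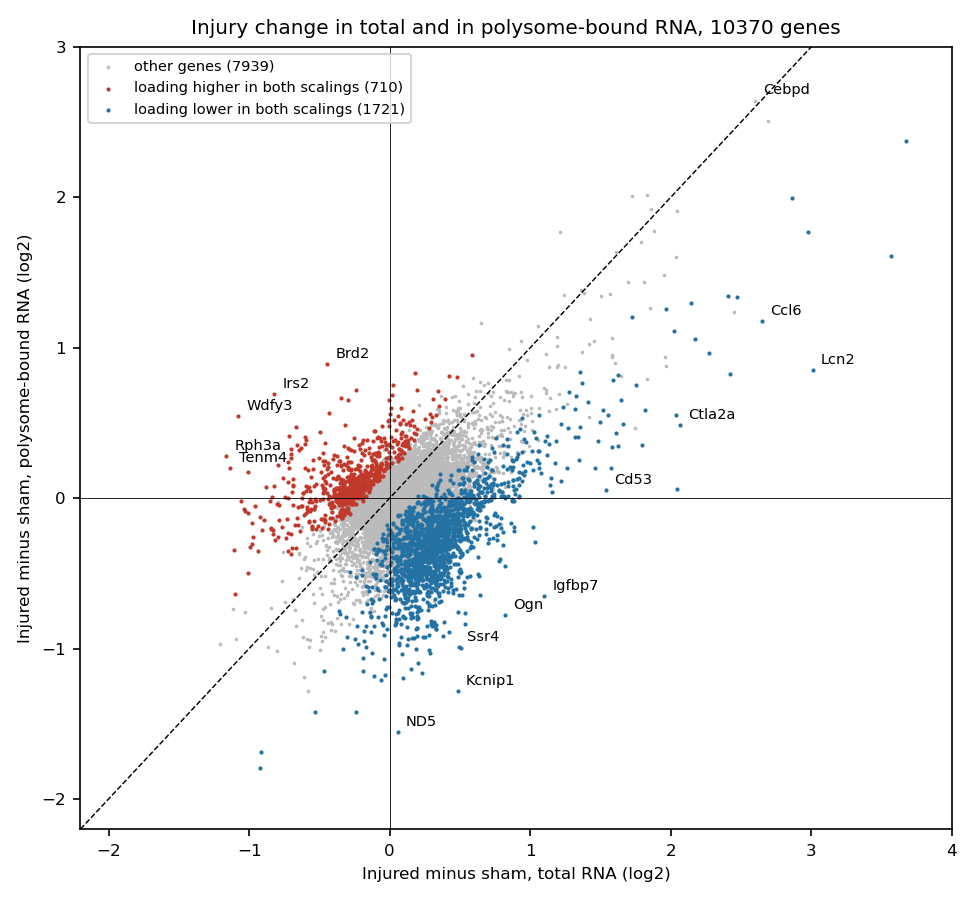
Each point is 1 of 10370 genes, with the log2 change after injury in total RNA on the x axis and on polysomes on the y axis, each from 3 injured against 3 sham arrays. On the dashed line the changes are equal. The 710 genes in red lie above it and rose in loading in both scalings, and the 1721 genes in blue lie below it and fell in both.

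In the fractions themselves, injury changed 60.2% of genes in total RNA (42.1% higher, 18.1% lower) and 39.1% on polysomes (13.8% higher, 25.3% lower). Few falls of loading came with a fall in total RNA. Because the total change is subtracted in the loading change, a fall favours genes higher in total RNA and a rise favours genes lower there. The pattern counts that follow are therefore fixed in part by the definition. Among the 4072 genes whose loading fell, 61 were lower in both fractions and 1725 (42.4%) were higher in total RNA with no called change on polysomes. A further 1008 (24.8%) were lower on polysomes with no called change in total RNA, and 901 (22.1%) were higher in total RNA and lower on polysomes at once. The last pattern held 8.69% of all genes tested. Among the 1136 genes whose loading rose, 807 (71.0%) were lower in total RNA with no called change on polysomes, and 145 (12.8%) were higher on polysomes with no called change in total RNA. Only 84 rose on polysomes while falling in total RNA, 0.810% of all genes tested, and 48 did so without the polysome array of sham replicate 2. The opposite patterns shifted with scaling: after quantile normalization within each fraction, 179 genes were higher in total RNA and lower on polysomes, and 258 the reverse.

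The loading change followed the brightness of the probe set as deposited. Its median was 0.14 in the dimmest decile of genes and -0.366 in the second brightest. In the 4 brightest deciles 52.8% to 59.2% of genes fell in loading, and 2.70% to 4.82% rose. After quantile normalization within each fraction the medians of the deciles lay between -0.0317 and 0.0287. A bright gene that fell is thus read against more than the 39.3% of all genes. In the dimmest decile 31.1% of genes rose and in the next 26.9%, so a dim gene that rose is read against more than 11.0%.

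**Figure D2:**
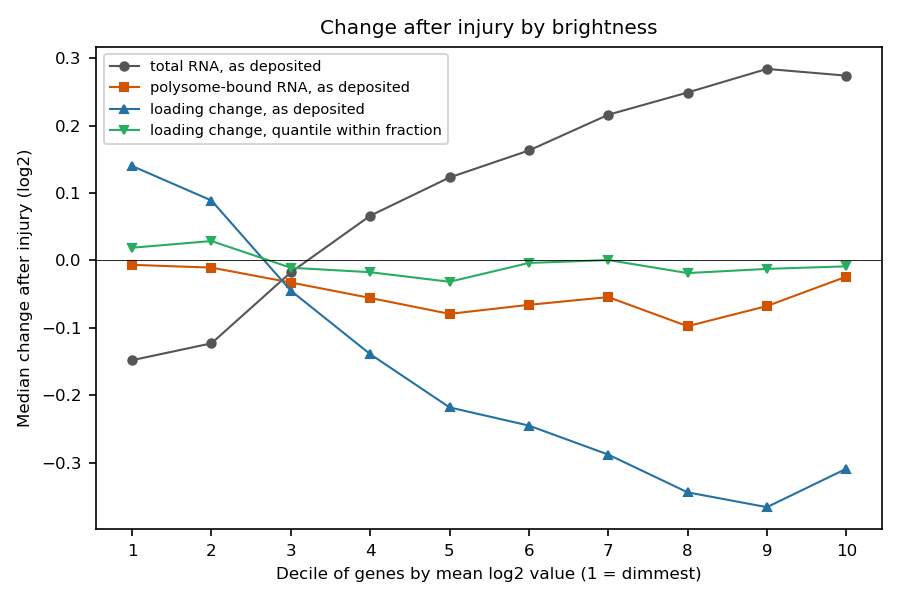
Medians over deciles of 1037 genes each, ordered by mean log2 value on the x axis, of the change after injury (log2) in total RNA, on polysomes and in loading. The deposited loading change falls from 0.14 to about -0.3 across the deciles, and the quantile normalized one stays between -0.0317 and 0.0287.

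The largest rises of loading were led by Wdfy3, Irs2, Rph3a and Brd2. Wdfy3, a large scaffold protein of selective autophagy, measured 8.87, 8.81 and 8.83 in total RNA of sham cords and 7.80, 7.65 and 7.83 in that of injured cords. On polysomes it measured 8.74, 8.79 and 8.70 in sham and 9.13, 9.77 and 8.97 in injured cords. The groups overlapped in neither fraction, and the fractions moved in opposite directions, down by about 1 log2 unit in total RNA and up on polysomes. Its loading rose by 1.62 ± 0.20 (SE), or 3.08-fold, with an adjusted p of 6.63e-05.

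Irs2, the adaptor that links insulin and IGF1 receptors to PI3-kinase, had 8.53, 8.48 and 8.54 in total RNA of sham and 7.75, 7.52 and 7.81 in injured cords. Its polysome values were 8.90, 8.83 and 8.88 in sham and 9.39, 9.82 and 9.48 in injured cords. Again every injured array lay below sham in total RNA and above it on polysomes. The loading of Irs2 rose by 1.52 ± 0.14, with an adjusted p of 1.14e-05. Rph3a, a Rab3 effector on synaptic vesicles, fell by 1.16 in total RNA and measured 9.21, 9.00 and 8.75 on polysomes of sham against 9.11, 9.65 and 9.03 of injured cords. The polysome groups overlapped, so the rise of its loading by 1.44 ± 0.21 (adjusted p = 0.000141) lay in a polysome level that did not follow the total level down.

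Brd2, a bromodomain reader of acetylated histones, had the smallest adjusted p of these 4. It measured 9.69, 9.75 and 9.73 in total RNA of sham and 9.22, 9.20 and 9.41 in injured cords, and 10.77, 10.76 and 10.66 against 11.58, 11.69 and 11.59 on polysomes. The loading difference was 1.34 ± 0.10 (adjusted p = 3.42e-06), but the second probe set of Brd2 gave -0.17 (adjusted p = 0.237). Tenm4, a teneurin adhesion protein of neurons and oligodendrocytes, rose in loading by 1.33 ± 0.17 through a fall of total RNA by 1.13. The other 7 of the 12 largest rises were Atp8a1 (1.18), a phospholipid flippase, Endod1 (1.14), Sbno1 (1.13), Pja2 (1.03), a ubiquitin ligase that acts on protein kinase A, Zfp445 (1.01), a zinc finger protein that maintains imprints, Prrc2a (1.01) and Ttc28 (1.00).

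Several of these rises were not shared by the gene's other probe sets. Pja2 is the clearest case: its brightest probe set rose in loading by 1.03 while the other probe sets fell by 1.03 and 1.29, each past the threshold. Sbno1 had other values of -0.33, 0.51 and -0.32, all called. Zfp445 had -0.28, called, and Atp8a1 0.10, not called. Of the other 3 Endod1 probe sets 1 rose by 0.69, and the others gave 0.45 and -0.05, neither called as deposited. Prrc2a (0.29) and Ttc28 (0.26) had a smaller called rise, and Wdfy3, Irs2, Rph3a and Tenm4 had 1 probe set each. Across all genes that rose, 279 had a second probe set, which was called in the same direction in 38.7% and in the opposite one in 9.32%. For 1863 such genes that fell, the shares were 53.4% and 11.1%. Where probe sets of a gene disagree they may report different transcripts or 3′ ends, which was not tested.

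Among the largest falls, some transcripts rose in total RNA with a smaller rise or no called change on polysomes. Others rose in total RNA and fell on polysomes, or dropped on polysomes alone. Lcn2, the secreted iron-carrier binding protein of the acute phase response, showed the largest fall. Its total RNA values were 8.26, 7.41 and 7.17 in sham and 10.29, 11.23 and 10.35 in injured cords, against 7.22, 6.57 and 6.55 and then 7.15, 8.37 and 7.38 on polysomes. The total groups were far apart while the polysome groups overlapped. Loading of Lcn2 fell by 2.16 ± 0.47, or 4.46-fold, with an adjusted p of 0.00229. Cd53, a tetraspanin of leukocytes, followed the same course, up by 1.54 in total RNA with 0.05 on polysomes and overlap there. Ctla2a and the chemokine Ccl6 rose in both fractions but less on polysomes, by 2.07 and 2.65 in total RNA and by 0.48 and 1.18 on polysomes. Lgalsl, a galectin-related protein, rose by 1.04 in total RNA and fell by 0.29 on polysomes.

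Kcnip1, a calcium-binding partner of A-type potassium channels, had the smallest adjusted p of the largest falls. It measured 9.16, 9.20 and 9.15 in total RNA of sham and 9.60, 9.68 and 9.69 in injured cords, and 9.40, 9.42 and 9.31 against 7.92, 8.16 and 8.21 on polysomes. All 3 injured polysome arrays lay more than 1 log2 unit below sham while total RNA rose. The loading of Kcnip1 fell by 1.77 ± 0.10 (adjusted p = 6.94e-07), with -1.36, 0.22 and 0.11 from the remaining probe sets. Igfbp7, a secreted binding protein of vessels, moved from 9.60, 9.63 and 9.72 to 10.82, 10.83 and 10.59 in total RNA and from 9.04, 8.93 and 9.12 to 8.24, 8.57 and 8.32 on polysomes. Its fall in loading by 1.75 ± 0.13 (adjusted p = 3.63e-06) was met by -0.19 in a dimmer probe set, called lower in both scalings, and by 0.09 in the other, not called.

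ND5, a subunit of respiratory complex I encoded by the mitochondrial genome and translated inside mitochondria, changed on polysomes alone. Its polysome values were 11.30, 11.48 and 11.56 in sham and 9.95, 9.63 and 10.09 in injured cords, while total RNA lay between 13.68 and 13.89 on all 6 arrays. Ogn, the small proteoglycan osteoglycin of the meninges, rose in total RNA from 9.23, 9.73 and 9.95 to 10.33, 10.61 and 10.43 and fell on polysomes from 7.86, 7.78 and 8.18 to 7.13, 7.05 and 7.30. Both fractions were free of overlap, the loading of Ogn fell by 1.60 ± 0.21 (adjusted p = 9.01e-05), and its second probe set gave -1.44. Pno1, an assembly factor of the small ribosomal subunit, rose by 0.54 in total RNA and fell by 0.84 on polysomes. Lyz1, a lysozyme whose probes can also detect Lyz2, did not pass in total RNA (0.23) and fell by 1.16 on polysomes.

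**Figure D3:**
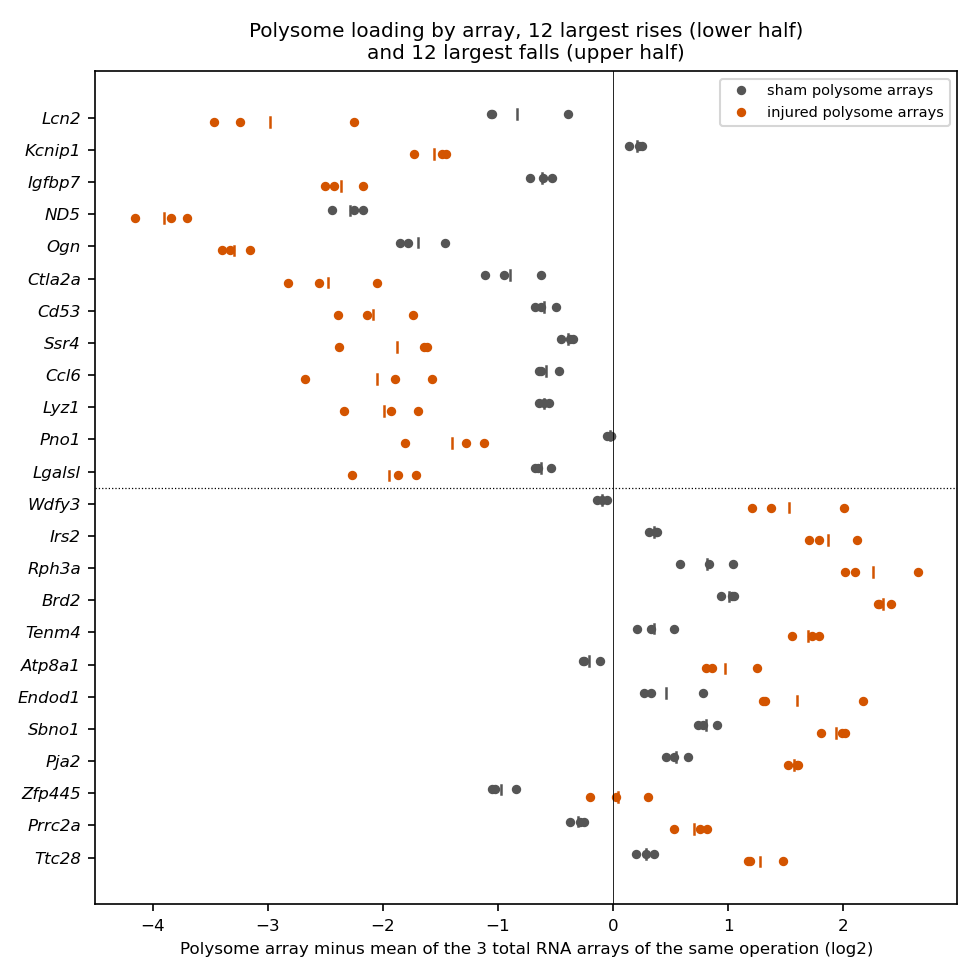
The 12 largest rises and the 12 largest falls of loading. Each dot is 1 polysome array minus the mean of the 3 total RNA arrays of the same operation (log2), grey for sham and orange for injured, and each tick is the mean of 3. By the rule that chose these genes, the injured and sham dots of a gene do not overlap, as in 69.0% of all genes.

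The genes that serve the entry of proteins into the endoplasmic reticulum (ER) and their folding there were the list with the lowest median loading change as deposited, though not after quantile normalization. The median of its 42 measured members was -0.526, against -0.164 over all genes. Of these, 33 fell (78.6%) and 1 rose, Ern1, and 16 fell in both scalings. The median quantile value was -0.181, against -0.00199 over all genes. In total RNA 31 of the 42 were higher, with a median of 0.362, and on polysomes 16 were lower, with a median of -0.182. These are bright genes, with a median log2 value of 9.94, so the share to read them against is that of the bright deciles above.

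Chaperones and disulfide enzymes, which fold new secretory proteins, fell in 10 of 15, with a median of -0.52. Pdia3, a disulfide isomerase that works on glycoproteins, measured 10.14, 10.19 and 10.29 in total RNA of sham and 10.64, 10.37 and 10.58 in injured cords, and 10.00, 9.78 and 10.00 against 9.19, 9.29 and 9.18 on polysomes. Each fraction separated the groups, in opposite directions, and loading of Pdia3 fell by 1.03 ± 0.12 (adjusted p = 3.9e-05). Canx, the lectin chaperone calnexin, fell in loading by 0.85 ± 0.10, and Dnajc3, a cochaperone of BiP, by 0.92 ± 0.12. Hspa5, which encodes BiP itself, had a loading change of -0.24 ± 0.12 that did not pass (adjusted p = 0.114), although its second probe set fell by 0.635.

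The translocation channel and its partners fell in 6 of 7 measured genes. Ssr4, a subunit of the TRAP complex beside the channel, measured 9.86, 9.84 and 9.89 in total RNA of sham and 10.49, 10.41 and 10.18 in injured cords, and 9.42, 9.51 and 9.50 against 7.98, 8.74 and 8.72 on polysomes. Its loading fell by 1.48 ± 0.21 (adjusted p = 0.000148), while its dimmer probe sets gave 0.03 and 0.14, neither called. Tram1, which assists some proteins into the channel, fell by 0.86 ± 0.11, with 0.07 from its second probe set, not called. All 4 measured genes of the signal recognition particle and its receptor fell as deposited and none in both scalings. The signal peptidase genes, which cut off the signal sequence, fell in 4 of 4, and 2 did so in both scalings. The oligosaccharyltransferase, which adds N-glycans, fell in 6 of 7, among them the subunits Ostc by 0.97 and Stt3a by 0.83. Of the 5 stress sensors and degradation genes 3 fell. Ern1, the sensor kinase IRE1, rose in loading by 0.25, which did not pass without the polysome arrays of injured replicates 1 and 2.

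**Figure D4:**
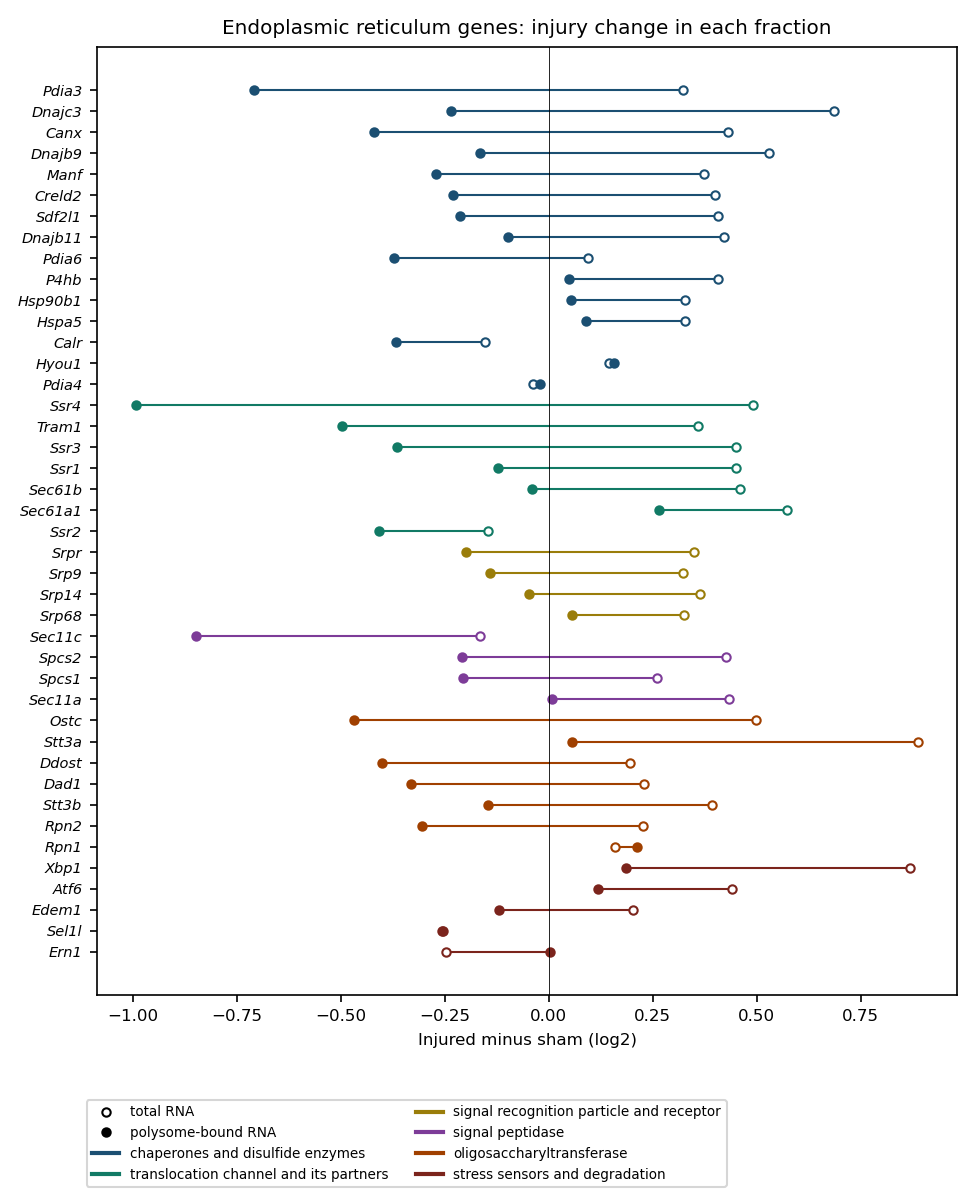
The 42 measured genes of the endoplasmic reticulum list, grouped by role, with the log2 change after injury on the x axis, open circles for total RNA and filled circles for polysomes. In most genes the filled circle lies left of the open one, and the list's median loading change is -0.526.

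Oligodendrocyte and myelin genes had a lower median on polysomes and little median change in total RNA. Astrocyte markers had a higher median in total RNA and little median change on polysomes. Of 21 oligodendrocyte and myelin genes 12 fell in loading (57.1%), none rose, and 8 fell in both scalings. Their median was -0.471 and their median quantile value -0.187. The list's median log2 value was 10.6, near the border of the brightest decile (59.2% of genes fell) and the next (58.3%). After quantile normalization within each fraction 8 fell and 1 rose, against 17.6% and 16.1% of all genes. In total RNA the list's median change was -0.071, and on polysomes -0.57. Gpr37, a receptor of myelinating oligodendrocytes, moved from 10.14, 10.15 and 10.11 on sham polysomes to 8.52, 8.80 and 8.83 on injured polysomes, against 10.55, 10.47 and 10.54 and then 10.35, 10.19 and 10.30 in total RNA. The polysome drop was several times the drop of total RNA, and loading of Gpr37 fell by 1.18 ± 0.11 (adjusted p = 1.27e-05). Mal, a lipid raft protein of compact myelin, fell by 1.18 ± 0.15, and Ugt8a, the enzyme that makes the myelin lipid galactosylceramide, by 0.89 ± 0.10. The second probe sets of Mal (-0.20) and Ugt8a (-0.08) did not pass. Mbp, myelin basic protein, had a loading change of 0.08 ± 0.07 and Cnp one of 0.08 ± 0.05, neither called as deposited, while cyclic loess within each fraction called Mbp higher by 0.25 and Cnp by 0.27.

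Among 19 astrocyte markers 12 fell in loading (63.2%), 5 of them in both scalings, and none rose. Their median was -0.357 and their median quantile value -0.052. The list's median log2 value was 10.7, in the brightest decile, where 59.2% of genes fell. In total RNA 12 astrocyte markers were higher and none lower, with a median change of 0.236, and on polysomes 7 were higher and 7 lower, with a median of -0.0261. Aqp4, the water channel of astrocyte endfeet, measured 11.97, 11.87 and 11.96 in total RNA of sham and 11.86, 11.87 and 11.89 in injured cords, and 11.17, 11.13 and 11.31 against 9.88, 10.06 and 10.05 on polysomes. The total groups overlapped while the polysome values dropped by more than 1 log2 unit. The loading of Aqp4 fell by 1.15 ± 0.09 (adjusted p = 4.39e-06), though its second probe set gave 0.24, not called. That probe set fell by 1.52 in total RNA and by 1.27 on polysomes, and its quantile value was a called rise of 0.59 (adjusted p = 0.0185). The probe sets of Aqp4 thus disagree on total RNA and on the direction of loading. Ntsr2, a neurotensin receptor of astrocytes, fell by 1.10 ± 0.11, Apoe, the lipid carrier, by 0.56 ± 0.09, and Slc1a2, the main glutamate transporter, by 0.46 ± 0.09.

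Sterol and fatty acid synthesis, by which glia supply membrane lipid, fell in 14 of 27 genes (51.9%) and in 4 in both scalings, a share near that of the bright genes. Its largest falls again lay on polysomes. Fdps, which makes farnesyl pyrophosphate, measured 10.04, 9.98 and 9.99 on sham and 8.79, 8.94 and 8.76 on injured polysomes, with all 6 total RNA values between 9.92 and 10.04. Its loading fell by 1.14 ± 0.09 (adjusted p = 3.96e-06). The later sterol enzymes Nsdhl and Msmo1 fell by 1.00 ± 0.10 and 0.98 ± 0.12, and Scd1, a fatty acid desaturase, by 0.90 ± 0.14. The second probe set of Scd1 gave 0.21, not called.

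Among lists with more than 20 measured genes, channel, axon guidance and synaptic vesicle genes held the largest shares of rises. Of the smaller lists, 20 transmitter receptor genes held 20% and 9 lymphocyte genes 33.3%, more than the synaptic vesicle genes. Of 37 voltage-gated channel genes 11 rose in loading (29.7%, against 11.0% of all genes) and 10 fell (27%), and in both scalings 10 rose and 2 fell. The rises were largest for subunits of potassium channels. Kcna2, a Kv1 subunit of axons, fell in total RNA from 7.91, 7.81 and 7.81 to 7.02, 6.99 and 7.12. On polysomes it measured 6.75, 6.74 and 6.54 in sham and 6.62, 6.62 and 6.69 in injured cords. These polysome values lay near the brightest control probe set of sequences absent from mouse (absent controls), which measured 6.40 to 6.53 there. The size of the loading change of Kcna2 is therefore uncertain. Overlap was complete on polysomes and absent in total RNA, and loading of Kcna2 rose by 0.77 ± 0.09 (adjusted p = 3.9e-05). Its partner Kcna1 rose in loading by 0.96 ± 0.15, and Kcnh1, an ether-a-go-go channel, by 0.80 ± 0.12. In the other direction, Scn8a, the sodium channel of nodes of Ranvier, fell by 0.59 ± 0.09. Cacnb2, a calcium channel subunit, was called lower, with injured polysome values below the highest absent control. Quantile normalization over all 12 arrays lost the call of Scn8a (adjusted p = 0.06).

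Of 57 axon guidance genes 12 rose (21.1%) and 12 fell, and in both scalings 10 rose and 4 fell. Transmembrane semaphorins were among both: Sema6a rose by 0.43 ± 0.07 while Sema5a fell by 0.77 ± 0.07. The second probe set of Sema6a gave -0.05, not called. Epha8, an ephrin receptor, rose by 0.37 ± 0.08, and Efnb3, a transmembrane ephrin of midline and myelin, fell by 0.74 ± 0.11. Sema6a and Epha8 are dim, with mean log2 values of 6.93 and 6.72, in a decile where 26.9% of genes rose. The size of their rises is uncertain. Nrp2, a semaphorin receptor, had the largest rise of the list at 0.50 ± 0.11. The 38 synaptic vesicle genes held 7 rises (18.4%), all in both scalings, and 15 falls (39.5%), 5 of them in both. After Rph3a the rises included Syt1, the calcium sensor of vesicle release, by 0.58 ± 0.13 and Sv2a, a vesicle glycoprotein, by 0.50 ± 0.09. Bsn, the active zone scaffold Bassoon, rose by 0.33 ± 0.06 (second probe set 0.18, not called). Bsn lay in the same dim decile, with a mean of 6.93, so the size of its rise is uncertain. Sh3gl2, endophilin A1 of vesicle recycling, fell by 0.49 ± 0.08. Syt1 fell in both fractions, by 0.94 in total RNA and by 0.35 on polysomes, and its second probe set rose in loading by 0.70.

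Among 20 transmitter receptor genes 4 rose (20%) and 7 fell (35%), and in both scalings 2 rose and 2 fell. Grik5, a kainate receptor subunit, rose by 0.67 ± 0.12, Grin2d, an NMDA receptor subunit, by 0.41 ± 0.09, and Glrb, the glycine receptor subunit that anchors it at the synapse, fell by 0.84 ± 0.10. Grin2d, with a mean log2 value of 6.91, lay in the dim decile where 26.9% of genes rose, so its size is uncertain. Of 20 neuron markers 3 rose and 10 fell. Rbfox3, the neuronal nuclear antigen NeuN, rose by 0.62 ± 0.12, with total RNA down by 0.83, and Slc18a3, the acetylcholine vesicle transporter of motor neurons, fell by 0.62 ± 0.14, a call lost after quantile normalization over all 12 arrays (adjusted p = 0.0537). Neuron markers thus held both directions, and the median level over the list in total RNA was 11.1 in sham and 11.3 in injured cords (log2).

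**Figure D5:**
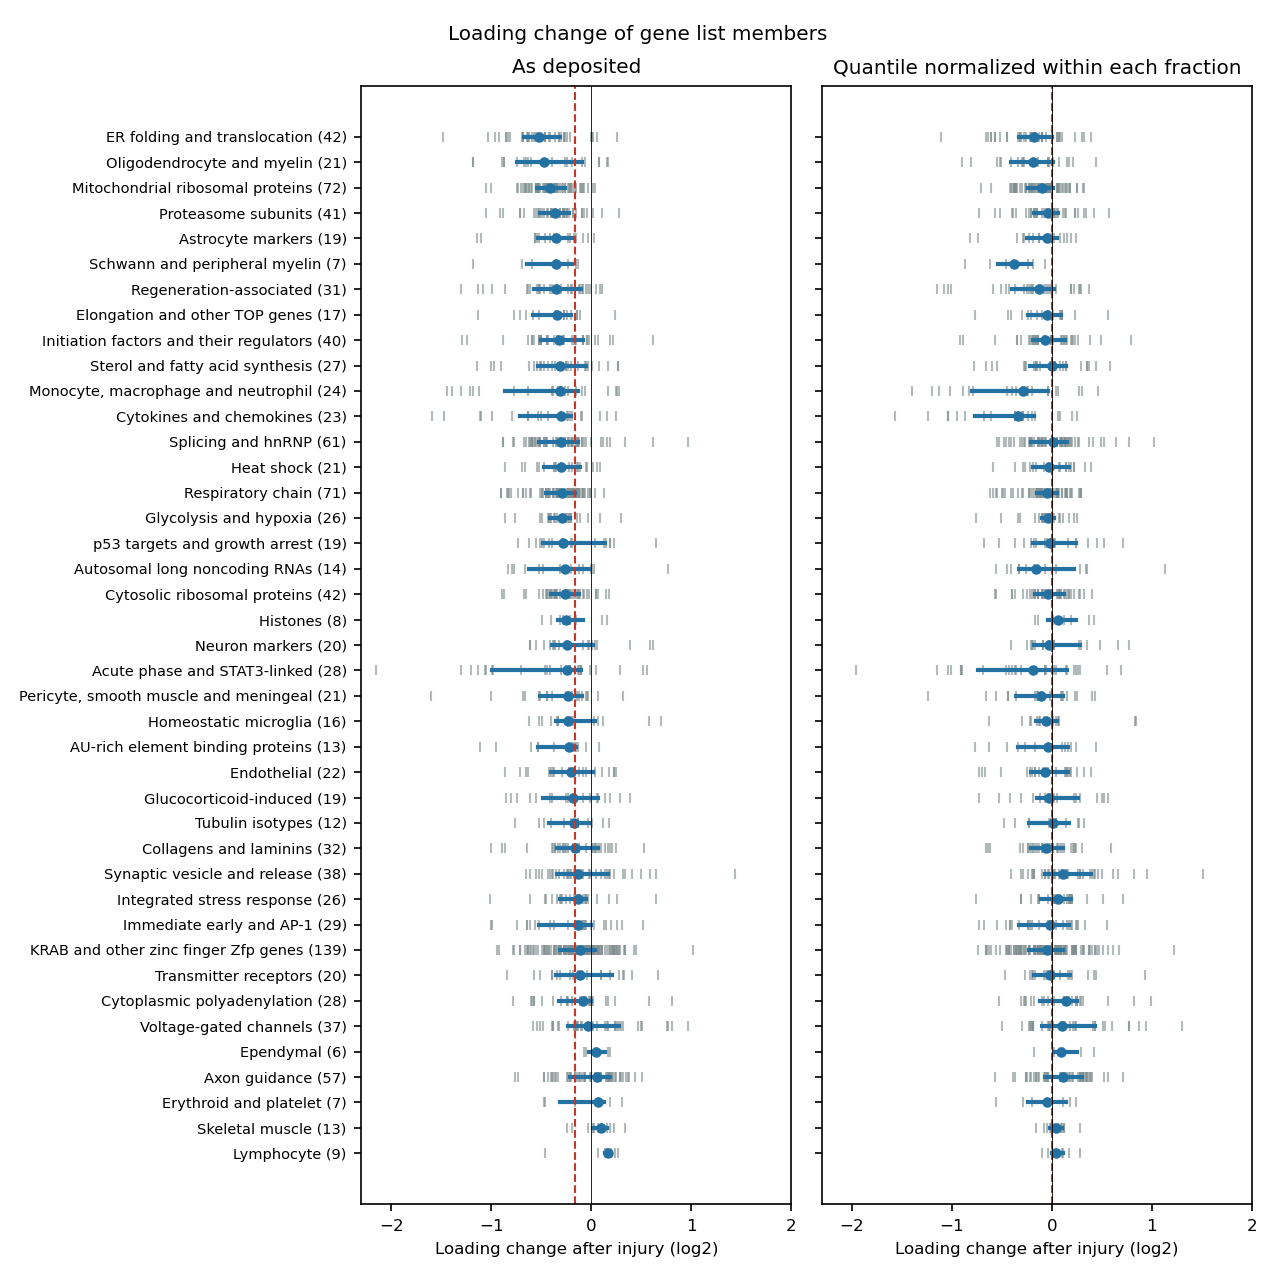
Loading change after injury (log2) of the measured members of each of 41 gene lists, as deposited on the left and after quantile normalization within each fraction on the right. Each thin tick is 1 gene, the dot is the list's median, the thick line is its interquartile range, the dashed line is the median of all 10370 genes, and the number of measured members follows each name. The ER list has the lowest deposited median, -0.526, and the medians of axon guidance, synaptic and channel genes lie right of the dashed line in both panels.

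Among genes that were higher after injury in both fractions, 223 fell in loading and 24 rose as deposited, so that a smaller rise on polysomes was the more frequent of the called patterns. The imbalance was smaller after quantile normalization within each fraction, with 141 falls and 67 rises. Of 28 acute phase and STAT3-linked genes, 27 were higher in total RNA and 24 on polysomes, 11 fell in loading (39.3%, as among all genes), 10 of them in both scalings, and 1 rose. Socs3, the feedback inhibitor of STAT3, went from 7.29, 6.91 and 7.22 to 10.96, 11.10 and 10.39 in total RNA and from 6.81, 6.40 and 6.56 to 8.65, 9.48 and 8.76 on polysomes. Both fractions separated the groups widely, yet the polysome rise was smaller, and loading of Socs3 fell by 1.30 ± 0.29 (adjusted p = 0.00265). Its other probe sets fell by 1.00 and 1.32. Serpina3n, a serine protease inhibitor of reactive astrocytes, fell by 1.21 ± 0.17, and Osmr, the oncostatin M receptor, by 1.06 ± 0.20. Fgl2, a fibrinogen-like protein, was also called lower. Osmr in sham and Fgl2 in injured cords lay near the absent controls on polysomes, so the size of these falls is uncertain. In contrast, Cebpd, an acute phase transcription factor, rose by 2.60 in total RNA and by 2.64 on polysomes. Its loading change of 0.05 ± 0.21 was not called, and a second probe set of Cebpd rose in loading by 0.362.

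Secreted chemokines and cytokines fell in 11 of 23 genes (47.8%), 10 of them in both scalings, and their median was -0.308, with a median quantile value of -0.338. The list is dim, with a median log2 value of 6.97, in a decile where 9.06% of genes fell, against 39.3% of all genes. Only 9 of the 23 lay above the absent controls on at least 2 of 3 arrays in all groups, so the size of many changes is uncertain. Cxcl2, a neutrophil chemokine, rose in total RNA from 6.44, 6.44 and 6.36 to 8.64, 9.21 and 8.66 and on polysomes from 5.89, 5.95 and 5.84 to 6.35, 7.09 and 6.72. Its sham values lay below the highest absent control probe set, so its size is uncertain, and the loading of Cxcl2 fell by 1.59 ± 0.22 (adjusted p = 0.000116). The chemokine Ccl9, above those controls on all arrays, fell by 1.11 ± 0.24. Ccl2, the main monocyte chemokine, and Ccl3 were also called lower, but lay above the highest absent control on 10 and 3 of 12 arrays, so no size is given. Monocyte, macrophage and neutrophil markers fell in 8 of 24 (33.3%), 7 in both scalings. In total RNA 17 of the 24 were higher and 3 lower, and the median level over the list was 7.46 in sham and 7.99 in injured cords (log2), and the part of such cells in these falls was not tested. Chil3, a chitinase-like protein of myeloid cells, was called lower but lay near the absent controls in at least 1 group. Cd14, the lipopolysaccharide coreceptor, fell by 1.31 ± 0.20 and Lyz2 by 1.12 ± 0.17.

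Microglia differed within their own list, in which 2 of 16 genes rose and 6 fell. Cx3cr1, the fractalkine receptor, fell in total RNA from 8.45, 8.38 and 8.38 to 7.65, 7.33 and 7.50 and measured 7.89, 7.62 and 7.86 against 7.39, 7.70 and 7.64 on polysomes, where the groups overlapped. The loading of Cx3cr1 rose by 0.70 ± 0.13 (adjusted p = 0.000942). C1qa, a complement subunit, rose by 0.58 ± 0.20, which did not pass without any 1 of 6 arrays: total RNA of sham replicate 1 or of injured replicate 1 or 2, or polysomes of sham replicate 2 or 3 or of injured replicate 2 (adjusted p from 0.0552 to 0.0717). Itgam, the integrin CD11b, was called lower, near the absent controls in at least 1 group.

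Immediate early genes, the first transcription factors and phosphatases of a stimulus, fell in 10 of 29 (34.5%) and rose in 3. Fos fell by 1.01 ± 0.21 in loading with total RNA up by 1.76 and polysomes up by 0.75. The phosphatases Dusp1 and Dusp6 fell by 0.75 ± 0.11 and 0.62 ± 0.10, and the transcription factor Klf6 by 0.64 ± 0.13. A dimmer probe set of Klf6 gave 0.40, not called as deposited. Among 19 glucocorticoid-induced genes 6 fell and 1 rose. Fkbp5, a cochaperone of the glucocorticoid receptor, fell by 0.85 ± 0.19, whereas the clock gene Per1 rose by 0.39 ± 0.11, a call lost without the polysome arrays of injured replicates 1 and 2 (0.26). Map3k6 was also called lower, with sham polysome values at the level of the absent controls. A second probe set of Fkbp5 did not pass (adjusted p = 0.988). Other strongly induced members showed no called loading change as deposited: Plin4, a lipid droplet protein, rose by 2.69 in total RNA and 2.51 on polysomes, and the cell cycle inhibitor Cdkn1a by 1.83 and 2.01. For Cdkn1a the quantile value of 0.52 was called (adjusted p = 0.00921), and its second probe set rose in loading by 1.56. Regeneration-associated genes fell in 14 of 31 (45.2%), and none rose. Hspb1, a small heat shock protein, fell by 0.87 ± 0.15 and the neurotrophin Bdnf by 0.54 ± 0.12, while the second probe set of Bdnf gave 0.11, not called.

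The translation machinery itself fell in loading as deposited, close to the share of bright genes. Of 42 cytosolic ribosomal protein genes 21 fell (50%) and none rose, with a median of -0.259 and a median quantile value of -0.0399. Rplp0, a stalk protein of the large subunit, measured 11.89, 11.91 and 11.98 in total RNA of sham and 12.55, 12.39 and 12.40 in injured cords, and 11.15, 11.16 and 11.10 against 10.55, 10.89 and 10.84 on polysomes. Its groups moved apart in opposite directions and its loading fell by 0.90 ± 0.11, followed by Rps26 with 0.88 ± 0.17, Rpl6 with 0.68 ± 0.08 and Rpl4 with 0.46 ± 0.06. Elongation factors and other genes of this class fell in 12 of 17 (70.6%), 5 after quantile normalization. Btf3, a subunit of the nascent chain complex at the ribosome exit, fell by 1.13 ± 0.12, and its partner Naca by 0.71 ± 0.11.

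Of 40 initiation factors and their regulators 23 fell (57.5%) and 3 rose. That was the background share of genes this bright: the list's median log2 value was 9.64, in a decile where 57.5% of genes fell. After quantile normalization within each fraction 6 rose and 6 fell, with a median quantile value of -0.0694. Eif4e, the cap-binding protein, measured 10.47, 10.54 and 10.59 in total RNA of sham and 11.15, 11.03 and 11.03 in injured cords, and 10.04, 10.04 and 10.07 against 8.93, 9.61 and 9.31 on polysomes. Each fraction separated the groups, and the brightest probe set of Eif4e fell by 1.30 ± 0.17 (adjusted p = 7.97e-05), but the remaining probe sets were at -0.23 and -0.26, neither called. Eif3m, a subunit of the factor that bridges mRNA and the small ribosomal subunit, fell by 1.24 ± 0.10, and Eif3h and Eif3f by 0.65 ± 0.09 and 0.59 ± 0.08. Eif1a fell by 0.88 ± 0.13, and Mknk1, a kinase of Eif4e, by 0.59 ± 0.08. The remaining probe sets of Mknk1 gave -0.01 and 0.17, neither called, and the mean of its probe sets did not pass. Eif4e3, a cap-binding relative of Eif4e, rose by 0.62 ± 0.10, though its second probe set fell by 0.318.

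Ribosomal and elongation factor mRNAs are known to begin with a C and a run of pyrimidines, the 5′ terminal oligopyrimidine (TOP) motif, through which their translation is controlled together. Starts from RefSeq (GRCm38.p6) were found for 8318 of the 10370 genes tested. Windows from 10 bases before to 20 bases from the annotated start show how far annotated starts carry the motif, with any run of C and at least 4 pyrimidines that begins within 5 bases of the start in capitals.
Eif3f, chr7:108934405-108934434, plus strand: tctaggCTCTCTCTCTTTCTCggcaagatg
Rps26, chr10:128626487-128626516, minus strand: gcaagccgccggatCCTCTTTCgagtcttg
Rplp0, chr5:115559457-115559486, plus strand: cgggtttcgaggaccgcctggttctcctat
Within 5 bases of the start, Eif3f and Rps26 hold such a run and Rplp0 does not, although all fell in loading. Exactly at any of their annotated starts, 260 genes (3.13%) held the run, read along the strand of the gene. Counted over single RefSeq starts the share was 2.51%. These shares differ in unit, because a gene can have several starts. The median loading change of the 260 genes was -0.166, against -0.169 for genes without the run. Within ribosomal and elongation genes the 11 with the run had a median of -0.246 and the 37 without it -0.356. Genes with and without these letters at the annotated start had loading changes of similar median, except that the few ribosomal and elongation genes with the run lay closer to 0.

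Other machinery lists fell with the bright genes and lost most of that after quantile normalization. Mitochondrial ribosomal proteins fell in 48 of 72 (66.7%) and in 15 after quantile normalization (Mrpl18, 1.06 ± 0.18, and Mrpl42, 1.00 ± 0.16, were among the falls). Proteasome subunits fell in 29 of 41 (70.7%) and then in 8, with Psmd6 down by 0.89 ± 0.09 and Psmb7 by 0.68 ± 0.08. Nuclear genes of the respiratory chain fell in 39 of 71 (54.9%) and then in 12, with Ndufb2 of complex I down by 0.85 ± 0.10 and Atp5o of ATP synthase by 0.84 ± 0.10. Splicing factors fell in 32 of 61 (52.5%) and then in 9, led by Srsf11 with 0.89 ± 0.09 and Mbnl1 with 0.88 ± 0.08. For comparison, 17.6% of all genes fell after quantile normalization within each fraction and 16.1% rose. Rises were then called for 3 mitochondrial ribosomal, 7 proteasome, 4 respiratory chain and 9 splicing genes. The splicing list thus held as many rises as falls, with a median quantile value of 0.0137.

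Cpeb genes and their partners in cytoplasmic polyadenylation did not move one way. Cpeb1 measured 8.77, 8.87 and 8.95 in total RNA of sham and 9.07, 9.07 and 9.22 in injured cords, and 9.07, 8.91 and 8.95 against 8.63, 8.87 and 8.43 on polysomes. The total groups and the polysome groups were each free of overlap. Its loading fell as deposited (adjusted p = 0.00259), but the quantile value of -0.31 did not pass (adjusted p = 0.0576). Cpeb3 measured 10.08, 9.89 and 9.90 on sham polysomes and 10.42, 10.61 and 10.01 on injured polysomes, with overlap, and 8.86, 8.91 and 8.87 against 8.70, 8.63 and 8.75 in total RNA. The loading of Cpeb3 rose by 0.58 ± 0.16 (adjusted p = 0.00897), its other probe sets giving 0.89 and -0.14. Without the polysome arrays of injured replicates 1 and 2 it was 0.24 and not called (adjusted p = 0.0613). Cpeb2 (-0.06 ± 0.10) and Cpeb4 (-0.19 ± 0.13) did not pass as deposited, but the quantile value of Cpeb2 was a called rise of 0.29 (adjusted p = 0.0468). The quantile value of Cpeb4 was 0.18, not called, and a second Cpeb4 probe set fell by 0.59.

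Over the 28 measured genes of cytoplasmic polyadenylation and deadenylation 10 fell (35.7%) and 2 rose, Cpeb3 and Cnot3, with a median of -0.0854. The list's median log2 value was 8.94, in a decile where 52.8% of genes fell and 4.82% rose, so falls were fewer than among genes this bright. After quantile normalization within each fraction 6 rose and 4 fell. The median quantile value was 0.141, against -0.00199 over all genes. Subunits of the CCR4-NOT deadenylase went both ways. Cnot3, a regulatory subunit, measured 8.61, 8.59 and 8.77 in total RNA of sham and 8.14, 7.98 and 8.21 in injured cords, and 9.40, 9.54 and 9.36 against 9.80, 9.63 and 9.63 on polysomes. It thus moved down in total RNA and up on polysomes without overlap, and its loading rose by 0.80 ± 0.11. Cnot2 and the catalytic Cnot7 fell by 0.58 ± 0.09 and 0.57 ± 0.10 (Cnot7 did not pass after quantile normalization over all 12 arrays or in its second probe set), and the nuclear poly(A) polymerase Papola by 0.78 ± 0.15, although a dimmer Papola probe set rose by 0.34. Proteins that bind AU-rich elements, which mark unstable cytokine mRNAs, fell in 7 of 13 (53.8%), 4 of them in both scalings. That share was near the background of bright genes: the list's median log2 value was 9.25, in a decile where 57.5% of genes fell. Among them Zfp36l1 fell by 1.11 ± 0.20, Zfp36l2 by 0.95 ± 0.21 and Zfp36, known as tristetraprolin, by 0.60 ± 0.15, while Elavl1, which stabilises such mRNAs, fell by 0.54 ± 0.09. The other probe sets of Zfp36l2 rose by 0.22 and 0.23.

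Vessel and matrix lists fell at shares near that of all genes (39.3%). Of 22 endothelial genes 8 fell (36.4%) and 3 rose, with Slc2a1, the glucose transporter of the blood-brain barrier, down by 0.86 ± 0.12, the adhesion proteins Cdh5 by 0.72 ± 0.15 and Icam1 by 0.65 ± 0.12, and total RNA of each up by 0.72 or more. Cdh5 and Icam1 lay near the absent controls on polysomes, so the size of their falls is uncertain. Of 32 collagen and laminin genes 11 fell (34.4%) and 3 rose, among them Col4a2 of the basement membrane, down by 0.86 ± 0.10, and Col11a2, up by 0.53 ± 0.11. Pmp22, the peripheral myelin protein, was the largest of 4 falls among 7 Schwann cell genes, at 1.19 ± 0.16. Of 13 skeletal muscle genes none rose or fell in either scaling.

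The length of the gene in the genome had little relation to the deposited loading change, with medians between -0.135 and -0.19 over quintiles of genes. In both scalings, however, 10.5% of the longest quintile (63.9 kb or more) rose, against 5.12% to 6.42% in the other quintiles. Within each quintile of brightness the longest genes also held the largest share of rises, from 5.23% in the brightest to 16.0% in the second dimmest. This is a description across genes, which are not replicates.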

How the data were processed

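Each array measured 1 cord and 1 fraction. The deposited log2 values come from the submitters' value table. The log2 scale was read from the range of the values, and the authors' background correction, normalization and software are not given in the sources used here. No further scaling was applied before the reported fit, and scanner files were not used here. There were 22690 probe sets, of which 20380 name 1 gene in the platform annotation, 691 name several and 1606 none, including 64 control probe sets. Symbols of 20351 matched RefSeq (GRCm38.p6).

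Probe sets above the 25th percentile of their array on at least 3 arrays were kept (18042), and each gene was represented by its brightest one, giving 10370 genes, of which 3987 had 2 or more. limma 3.58.1 (statmod 1.5.0, R 4.3.3) fitted a mean per group over 12 arrays with an intensity trend (8 residual and 14.1 moderated degrees of freedom). Loading change is the interaction contrast. P-values are two-sided, adjusted by the Benjamini-Hochberg method over all 10370 genes, with a threshold of 0.05, and errors are standard errors. Probe sets of 27 sequences absent from mouse served as the background level. Arrays have no depth: the number of arrays limits the precision. Labels call the replicates biological, but do not say that equal numbers mark 1 animal, so no block was used. The procedure was tested on simulated data.

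The comparison, its gene lists and the rule for naming genes were chosen with earlier results of these data known. Among genes called alike in both scalings, without overlap of arrays and above the absent controls on at least 2 of 3 arrays in all groups, the rule took the 12 largest rises and falls, the 5 largest opposite patterns each way, and the Cpeb genes whatever their values. From each list it took up to 4 members called alike in both scalings with the lowest adjusted p, whether or not they lay above the absent controls. Clone names were skipped. Hspa5, Ern1, Ostc, Stt3a, Mbp, Cnp, Kcna1, Nrp2, Cebpd, Plin4, Cdkn1a and Eif4e3 were named after their values were seen. The division of the ER list into roles was also made afterwards. Alternatives covered the filter, the choice of probe set, scaling, moderation, weights, blocks and leaving out arrays.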

Additional observations from a re-analysis of the deposited data

Results flagged for a closer look

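Injury changes that differed between total and polysome-bound RNA, by the interaction test, were found in 5208 genes. Of these 901 were higher in total RNA and lower on polysomes and 84 were lower in total RNA and higher on polysomes. Probe sets without a single named gene, which the comparison did not use, also changed in loading: of 1451, 266 rose and 494 fell past the threshold, and 165 and 213 did so in both scalings.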

How the results depend on the processing

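Most settings moved the counts by less than 1.5 times. The exceptions follow. With the second brightest probe set, on fewer genes, 2123 genes were called (676 higher, 1447 lower), with 2402 in total RNA, 1644 on polysomes, 372 and 52 in the patterns up-down and down-up in total RNA and on polysomes, and 12 ER genes lower. With each probe set on its own these were 8368 (2240, 6128), 9892, 6419, 1381, 176 and 52. A minimum log2 change of 0.5 left 112 (15, 97), 234, 111, 0, 0 and 2 by limma's treat. Genes lower numbered 1830, 1877 and 1840 after quantile normalization within fractions, over 12 arrays and cyclic loess, with 179, 197 and 183 up-down, 258, 268 and 260 down-up, and 16, 17 and 16 ER genes lower, and total RNA had 3912 and 3972 called in the first and last. Centring arrays on their medians gave 1838 higher and 230 down-up. Filters at the array median and above the absent controls left 438 and 705 higher. Leaving out both polysome arrays of injured replicates 1 and 2, chosen after seeing the data, gave 4740 called and 50 down-up, with the lone array assumed to vary like the other groups. The calls of Ern1 (0.2), Per1 (0.259) and Cpeb3 (0.242) were then lost. The mean of probe sets lost those of Klf6, Bdnf, Mknk1, Eif4e3 and Zfp36l2.

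Leaving out 1 array at a time gave 4461 to 5683 called, 919 to 1181 higher, 3532 to 4502 lower, 29 to 34 ER genes lower, 5228 to 6801 in total RNA, 3200 to 4147 on polysomes, 662 to 1176 up-down and 48 to 97 down-up. With the replicate block by number, 5063 genes were called, 5006 with the replicate block by cord and 5210 with a random one, and no count moved by over 1.5 times. In sham every array correlated best with its own number (0.168 to 0.231), whereas injured replicates 1 (-0.0994) and 3 (0.0983 in total RNA, against 0.124 with number 1) did not, so equal numbers are only a hint of pairing. Hspa5 passed with the block by cord (adjusted p = 0.0337).

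Some directions reversed. Under the second brightest probe set they were Brd2 -0.167, Endod1 -0.0471, Sbno1 -0.332, Pja2 -1.03, Zfp445 -0.281, Igfbp7 0.0928, Ssr4 0.0309, Tram1 0.0657, Mbp -0.0113, Cnp -0.185, Aqp4 0.245, Scd1 0.206, Sema6a -0.0473, Klf6 0.404, Bdnf 0.115, Eif4e3 -0.318 and Zfp36l2 0.217. Without shared probe sets (_s_at, _x_at, _a_at), Brd2 gave -0.167, Endod1 -0.0471, Pja2 -1.29, Ssr4 0.0309, Sema6a -0.0473 and Papola 0.343. The mean of probe sets turned Pja2 to -0.43. Quantile normalization within fractions, over 12 arrays and cyclic loess turned Hspa5 (0.069, 0.0743, 0.0523), Cpeb2 (0.295, 0.283, 0.275) and Cpeb4 (0.177, 0.162, 0.139), the first and last also Plin4 (0.0519, 0.111), and centring Cpeb2 (0.0336). Cebpd turned to -0.149 after quantile normalization over 12 arrays, to -0.031 with array weights, to -0.0921 without both arrays above, and to between -0.0925 and -0.013 without 1 of 5 arrays (its values without 1 array ran from -0.0925 to 0.212). The cause was not tested. Signal over background limits dim genes such as Cxcl2. The planned split by protein length was not run.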
